A study of Homo sapiens with 4 samples.

Results

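CENPE, KIF14, NDC80 and MKI67 are 4 genes of dividing cells whose RNA was covered in a FLASH-seq experiment on the protein CFAP20. They were taken by their gene names from the deposited tables, 4 of 9667 genes in all, and their signal was read from the gene start to the gene end. All 4 were picked because of their signal with tagged CFAP20, alone or against the knockout, so these levels are described here and not tested. FLASH-seq fixes protein to RNA with ultraviolet light, captures the biotin-tagged protein on streptavidin, trims its RNA with RNase I and sequences what is left. All 4 libraries came from RPE1 iCas9 p53/puro-dKO CFAP20-KO cells, a line derived from human retinal pigment epithelium. The 2 CFAP20-KO libraries had no tagged protein and served as the negative control, and the 2 tagged-CFAP20 libraries came from these knockout cells expressing FLASH-BIO-CFAP20. The series asks whether CFAP20, a protein known from cilia, binds RNA. Whether each line was 1 clone, and what drove the transgene, was not given, and nothing tells whether the replicates were separate cultures, so p-values measure only how these libraries differ, and that may be technical.

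In mitosis, kinetochores assemble on centromeres and hold the ends of spindle microtubules, motor proteins of the kinesin family move chromosomes and bundle microtubules, and the cell is then cut in 2 by cytokinesis. CENPE is a kinesin of the kinetochore that carries chromosomes to the middle of the spindle. NDC80 is the subunit of the outer kinetochore that grips the microtubule. KIF14 is a kinesin of the midbody that is needed for cytokinesis. MKI67 encodes Ki-67, the proliferation marker, which coats mitotic chromosomes and keeps them apart. All 4 RNAs are typical of cycling cells, and their proteins peak late in the cell cycle.

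Values are given as read overlaps, the number of times a sequenced read overlapped a bin of 200 bp, and as deposited signal, in which 1 overlap was worth 83.0 and 277 units in CFAP20-KO replicates 1 and 2 and 12.9 and 13.9 units in tagged-CFAP20 replicates 1 and 2. For each gene, the bin with most overlaps over both tagged-CFAP20 libraries is printed, as its most covered stretch. These stretches hold a minor part of the overlaps of each gene. All 4 lay in coding exons. They are given 5′ to 3′ in the sense of the transcript, from the hg38 genome, with exon bases in capitals and intron bases in lower case.
CENPE: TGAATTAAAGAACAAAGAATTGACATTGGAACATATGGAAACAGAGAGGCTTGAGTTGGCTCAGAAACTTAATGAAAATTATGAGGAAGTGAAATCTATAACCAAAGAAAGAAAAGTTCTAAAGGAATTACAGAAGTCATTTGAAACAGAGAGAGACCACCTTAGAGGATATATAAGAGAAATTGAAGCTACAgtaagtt
KIF14: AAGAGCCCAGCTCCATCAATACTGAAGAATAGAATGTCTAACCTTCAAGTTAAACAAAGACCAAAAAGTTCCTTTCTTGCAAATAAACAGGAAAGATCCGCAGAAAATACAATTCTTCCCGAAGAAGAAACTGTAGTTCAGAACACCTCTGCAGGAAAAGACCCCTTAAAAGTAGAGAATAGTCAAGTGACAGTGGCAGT
NDC80: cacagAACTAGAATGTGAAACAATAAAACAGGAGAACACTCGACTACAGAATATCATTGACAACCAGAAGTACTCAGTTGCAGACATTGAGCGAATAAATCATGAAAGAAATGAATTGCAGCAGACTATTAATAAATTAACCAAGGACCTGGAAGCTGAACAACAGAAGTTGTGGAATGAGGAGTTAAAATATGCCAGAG
MKI67: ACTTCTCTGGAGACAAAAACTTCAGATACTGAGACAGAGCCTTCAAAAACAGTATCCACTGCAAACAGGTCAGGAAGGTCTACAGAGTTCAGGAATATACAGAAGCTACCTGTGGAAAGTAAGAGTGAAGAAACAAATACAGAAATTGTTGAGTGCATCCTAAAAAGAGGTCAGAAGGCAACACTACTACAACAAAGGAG
The CENPE stretch is at chr4:103149111-103149310 on the minus strand, in exon 27 of 49, where tagged-CFAP20 replicates 1 and 2 had 12 and 7 overlaps. The only 2 CENPE overlaps of CFAP20-KO replicate 1 lay in this same bin, and CFAP20-KO replicate 2 had 0 there. The KIF14 stretch is at chr1:200617636-200617835 on the minus strand, in exon 2 of 30, with 4 and 7 overlaps. The NDC80 stretch is at chr18:2595411-2595610 on the plus strand, in exon 11 of 17, with 8 and 7 overlaps. The MKI67 stretch is at chr10:128109087-128109286 on the minus strand, near the 5′ end of exon 13 of 15, with 24 and 22 overlaps. Neither CFAP20-KO library had an overlap in the last 3 of these bins. For CENPE, a bin that was mostly intron but touched exon 36 had the same sum, and the one nearer the gene start is shown.

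Depth differed strongly between the groups. Gene bodies held 9146 and 3908 overlaps in CFAP20-KO replicates 1 and 2, and 165189 and 134891 overlaps with the tagged protein. A count of 0 allows up to 3 reads, which in CFAP20-KO replicates 1 and 2 is a signal of 342 and 1142. That limit, like the intervals given further on, is for counting error alone. The coding bins of CFAP20 itself were read through the window of its neighbour MMP15. They held 0 and 0 overlaps in CFAP20-KO and 36 and 38 in tagged-CFAP20. At the low depth of CFAP20-KO, counts of 0 do not show whether this RNA was absent. Of the markers fixed for the cell type, MITF of pigment cells had 5, 0, 31 and 21 overlaps, RPE65 had 0, 0, 4 and 2, TTR was at 0 in all 4 libraries, and COL1A1 of cultured mesenchymal cells had 24, 10, 329 and 176. The T cell marker CD3E and the liver marker ALB were at 0 in all 4 libraries, and the neuronal SNAP25 had 0, 0, 11 and 15.

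CENPE (chr4, minus strand, 92604 bp) had 2 and 2 overlaps in CFAP20-KO and 315 and 279 in tagged-CFAP20, which is a deposited signal of 166 and 553.8 against 4049 and 3887. The tagged-CFAP20 libraries lay close together and both lay above both CFAP20-KO libraries, with means of 3968 ± 114 and 359.9 ± 274 (SD, n = 2 each). The ratio of these means was 11.03. This ratio sets capture with the tagged protein against capture without it, and the amount of CENPE RNA in the cells was not measured. Without CFAP20-KO replicate 2 the ratio was 23.9 and without CFAP20-KO replicate 1 it was 7.17, and with every library set to the same window total it was 5.49. From pooled reads, with each library weighted by its depth, the ratio was 15.1 with a 95% exact counting interval of 5.13 to 73.4. CENPE was picked for its signal in these libraries. The interval is for counting error alone and is no test of the ratio.

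KIF14 (chr1, minus strand, 69235 bp) had 0 overlaps in both CFAP20-KO libraries and 105 in each tagged-CFAP20 library. Its signal with the tagged protein was 1350 and 1463, with a mean of 1406 ± 80.2 (SD, n = 2). Against the signal that 3 reads pooled over both CFAP20-KO libraries would give, 263.3, this mean was higher by at least 5.34-fold.

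NDC80 (chr18, plus strand, 45125 bp) also had 0 overlaps in both CFAP20-KO libraries, against 72 and 49 in tagged-CFAP20. Its signal with the tagged protein was 925.4 and 682.7, with a mean of 804.1 ± 172 (SD, n = 2), at least 3.05-fold higher than the pooled floor. This mean lay under the 3-read signal of CFAP20-KO replicate 2 alone, 1142. That library by itself could not show a difference, and the bound rests on pooling it with replicate 1. The gene METTL4 begins just upstream on the opposite strand, and the signal was not split by strand. The 2 kb upstream of NDC80 held 0 overlaps in all 4 libraries. A pseudogene inside it, KATNBL1P3, covered 7 bins with 0, 0, 1 and 0 overlaps.

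MKI67 (chr10, minus strand, 29727 bp) was the only one of the 4 with more than a few overlaps in the control, 14 and 20. In tagged-CFAP20 it had 462 and 483 overlaps in bins that were at least 50% exon and a further 106 and 82 in the other bins. Its signal was 1162 and 5538 in CFAP20-KO and 7301 and 7872 in tagged-CFAP20. The groups did not overlap, but the CFAP20-KO libraries differed from each other more than the group means did, 3350 ± 3094 against 7587 ± 404 (SD, n = 2 each), a ratio of 2.26. Without CFAP20-KO replicate 2 the ratio was 6.53 and without CFAP20-KO replicate 1 it was 1.37, and with every library set to the same window total it was 1.16.

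Expressed as a share of each library's own overlaps in gene bodies, the genes divided. Per 10000 gene-body overlaps, CENPE had 2.19 and 5.12 in CFAP20-KO against 19.1 and 20.7 in tagged-CFAP20. MKI67 had 15.3 and 51.2 against 34.4 and 41.9, so its CFAP20-KO values lay on both sides of the tagged-CFAP20 values. KIF14 had 6.36 and 7.78 and NDC80 had 4.36 and 3.63 with the tagged protein, against 0 in CFAP20-KO. Had the CFAP20-KO libraries held the tagged-CFAP20 shares, their depth would have given 25.8 overlaps on CENPE where 4 were seen, 49.3 on MKI67 where 34 were seen, 9.14 on KIF14 and 5.26 on NDC80 where none was seen. KIF14 and NDC80 were chosen with their absence from the CFAP20-KO libraries in view, so these counts carry no test.

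**Figure D1:**
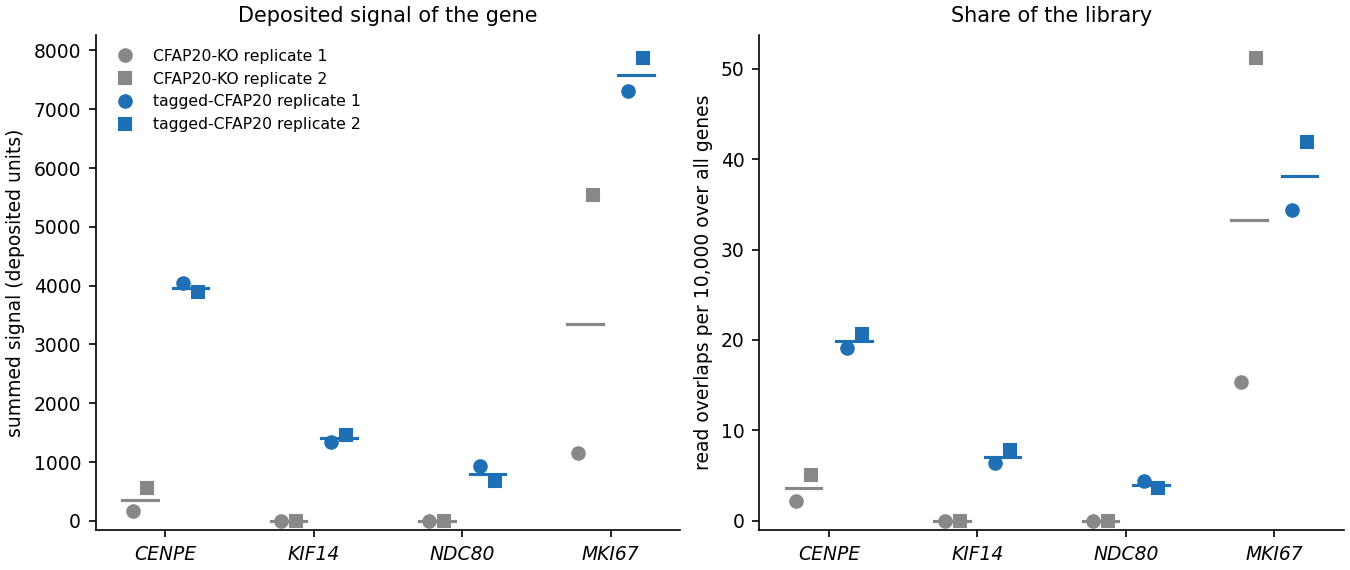
Deposited signal summed over each gene (left) and read overlaps per 10000 overlaps in all gene bodies (right), with 1 point per library and a line at the mean of the 2 libraries of a group. Tagged-CFAP20 lies above CFAP20-KO for all 4 genes in deposited signal, while the 2 CFAP20-KO values of MKI67, 15.3 and 51.2 per 10000, lie on either side of the tagged-CFAP20 values.

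Per kb of gene, MKI67 was highest with the tagged protein, followed by CENPE, and KIF14 and NDC80 were lower. MKI67 had a signal of 245.6 and 264.8 per kb, and CENPE 43.7 and 42.0. KIF14, at 19.5 and 21.1 per kb, and NDC80, at 20.5 and 15.1, overlapped and could not be ordered. By mean signal with the tagged protein, not corrected for length, MKI67 ranked 6, CENPE 34 and KIF14 297 among the 9667 genes. In CFAP20-KO, MKI67 stood at 39.1 and 186 per kb and CENPE at 1.79 and 5.98.

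By level over the 4 libraries, the genes most like KIF14 were TOPBP1, NOC3L and GLRX3, with Euclidean distances of 0.307, 0.435 and 0.462 on the log2(signal + 10) scale. The genes most like NDC80 were UTP20, BRCA1 and JADE2, at 0.128, 0.140 and 0.187. All 6 had no overlap in either CFAP20-KO library, and in the tagged-CFAP20 libraries they had from 43 overlaps (JADE2, replicate 2) to 134 (GLRX3, replicate 1). CENPE had no close match, the nearest being SRSF7, CPNE7 and USP33 at 1.07, 1.07 and 1.37. MKI67 lay nearest to CAPN2 at 0.322, which had 14 and 22 overlaps in CFAP20-KO, followed by SFPQ and HNRNPH1 at 1.11 and 1.13.

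The next question was where along each gene the reads lay. With the tagged protein all 4 genes had more overlaps per bin in exons than in introns. A bin was called exonic when at least 50% of its bases were in an exon of the canonical transcript. In CENPE, exonic bins made up 8.62% of the gene but held 135 of 315 and 108 of 279 overlaps in tagged-CFAP20 replicates 1 and 2, or 42.9% (95% exact interval 36.3 to 49.5) and 38.7% (32.2 to 46.0). In KIF14, exonic bins were 10.7% of the gene and held 41.9% (30.9 to 54.0) and 34.3% (23.7 to 46.0). In NDC80 they were 3.54% of the gene and held 22.2% (12.5 to 36.8) and 26.5% (12.1 to 42.2). The long exons of MKI67 made 44.3% of its bins exonic, and these held 81.3% (77.3 to 85.0) and 85.5% (81.6 to 88.7). The intervals treat 1.37 overlaps as 1 read, the mean found in these tables. In all 4 genes the intervals of the 2 tagged-CFAP20 libraries overlapped.

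The exon over intron density within the tagged-CFAP20 libraries was tested with limma over all genes with enough overlaps, a test that was added after the profiles of the 4 genes had been seen. Of 1779 genes tested, 66.9% were denser in exons and 1.12% denser in introns at an adjusted p of 0.05, with a median log2 ratio of 1.57, so exon-dense coverage was the usual pattern with this protein. All 4 genes were among those denser in exons. They were picked for their signal in these same libraries, and p-values from 2 libraries moved strongly with the settings of the fit. For CENPE the limma adjusted p was 8.21e-63 with a prior of 5 overlaps in place of 1. Over genes with at least 50 overlaps it was 7.33e-07. The p-values of the 4 genes are therefore not read by themselves. The log2 ratio was 2.86 ± 0.14 (SE, n = 2) for CENPE (limma adjusted p = 1.24e-12), 2.66 ± 0.14 for MKI67 (3.47e-12), 2.35 ± 0.24 for KIF14 (5.04e-08) and 3.10 ± 0.35 for NDC80 (2.18e-07), that is 7.26-, 6.34-, 5.08- and 8.59-fold. They lay above the median, with 11.1%, 15.2%, 22.8% and 6.75% of the tested genes higher than CENPE, MKI67, KIF14 and NDC80. With exonic bins limited to those wholly inside an exon, 298 of 1234 genes were denser in exons, and the adjusted p was 0.0379 for CENPE, 0.0131 for MKI67 and 0.0175 for KIF14, while NDC80 had too few such bins to test.

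**Figure D2:**
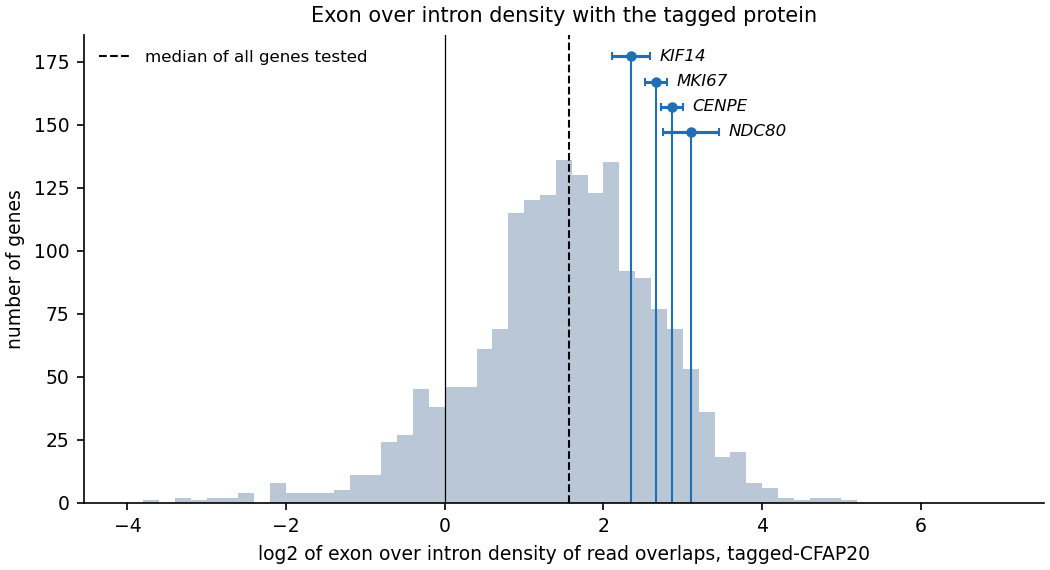
Distribution of the log2 ratio of exon over intron density of read overlaps in the tagged-CFAP20 libraries over 1779 genes, with the 4 genes marked as points with their standard errors and the median of all genes as a dashed line. The 4 genes lie between 2.35 and 3.10, above the median of 1.57 and inside the range of the other genes.

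Bins that were mostly intron but touched an exon lay between. In CENPE they held 2.14 and 1.71 overlaps per bin in tagged-CFAP20 replicates 1 and 2, against 3.38 and 2.70 in exonic bins and 0.236 and 0.259 in bins with no exon base. The same order held in MKI67, with 7.0 and 7.32 in exonic bins, 3.73 and 2.73 in touching bins and 0.903 and 0.722 in pure intron bins. KIF14 had 1.19 and 0.973, 0.607 and 0.750, and 0.156 and 0.170, and NDC80 had 2.0 and 1.62, 0.737 and 0.632, and 0.211 and 0.121. In all 4 genes and both libraries, pure intron bins had the lowest density, but they were not empty. The exonic and intron bins had a GC content of 33.0% and 34.9% in CENPE, 37.0% and 38.0% in KIF14, 35.4% and 36.5% in NDC80 and 47.7% and 40.4% in MKI67, so only the exons of MKI67 were richer in GC than its introns.

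**Figure D3:**
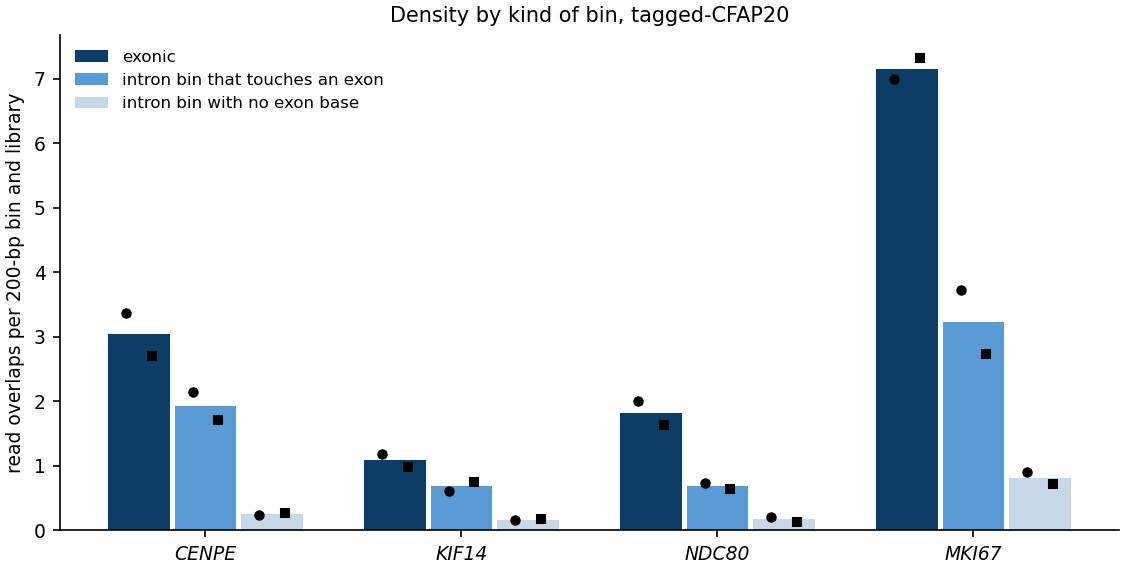
Read overlaps per 200-bp bin in the tagged-CFAP20 libraries, by whether the bin is exonic, touches an exon or has no exon base. Bars are means of the 2 libraries, circles replicate 1 and squares replicate 2, and pure intron bins are lowest in each of the 4 genes.

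In the control, too, the few overlaps lay mostly in exons. Of the 34 MKI67 overlaps in CFAP20-KO, 14 of 14 and 19 of 20 were in exonic bins, together 97.1% (95% exact interval 79.7 to 99.9) against 83.4% (80.7 to 85.9) pooled over tagged-CFAP20. Of the 4 CENPE overlaps, 3 were exonic. All 83 intron bins of MKI67 held 0 and 1 overlaps in CFAP20-KO, against 106 and 82 in tagged-CFAP20. The change of the exon against intron ratio between groups was called by limma for 0.0% of the 1099 genes with signal in every library. At an unadjusted p under 0.05 there were 283. For this ratio 1 overlap was added to each part, which weighs more in the shallow CFAP20-KO libraries. The 0.0% is therefore not read as equal ratios in the groups. Fisher's exact test on pooled overlaps called 1, with 27 at an unadjusted p under 0.05. The 4 genes were chosen on their signal in these libraries, not on this ratio, and no test of it is given for them. KIF14 and NDC80 had 0 overlaps in CFAP20-KO, so the ratio between groups could not be formed for these genes.

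MKI67 has 3 exons of at least 1 kb. Exon 13 (chr10:128102579-128109423, 6845 bp), which encodes the Ki-67 repeats, held 13 and 16 overlaps in CFAP20-KO and 306 and 345 in tagged-CFAP20, more than any other exon of the 4 genes. Its 35 bins were all covered in both tagged-CFAP20 libraries, with 2 to 24 overlaps a bin (median 8) in replicate 1 and 4 to 22 (median 10) in replicate 2. The highest bin of both libraries was the one printed above, and the overlaps were spread over the whole exon: the first 17 bins held 164 and 171 overlaps and the remaining 18 held 142 and 174. Compared with itself at offsets of whole codons from 30 to 900 bp, the exon's sequence matched best at 366 bp, or 122 codons, with 49.2% of bases identical against a median of 28.03%. The sources used here do not say how reads that map to several places were treated.

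The other large exons of MKI67 differed from each other. Exon 7 (chr10:128114928-128116007, 1080 bp) held 71 and 53 overlaps in tagged-CFAP20 and 0 in CFAP20-KO replicates 1 and 2. At 10.3 overlaps per bin it was the densest exon of the gene, just above the 9.30 of exon 13. Exon 15 (chr10:128096659-128099255, 2597 bp), which is mostly 3′ UTR, held 19 and 24, or 1.65 per bin. Exons of MKI67 other than this last one had 8.51 per bin.

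KIF14 has 2 large exons with the same contrast. Exon 2 (chr1:200617612-200618838, 1227 bp) had 19 and 21 overlaps in tagged-CFAP20, 3.33 per bin and the highest density in the gene. The last exon, 30 (chr1:200551500-200553767, 2268 bp), had 4 and 1, or 0.208 per bin, against 1.5 in the other exons. CENPE and NDC80 have no exon of 1 kb. The last exon of CENPE, 49, had 0 overlaps in its 3 bins in all 4 libraries, whereas its other exons averaged 3.28 per bin, and the last exon of NDC80 had 1 and 0 in its single bin.

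The coding part was thus denser than the 3′ UTR in both genes whose UTR was long enough to measure. The log2 ratio of coding over 3′ UTR density was 2.55 and 2.27 in the 2 tagged-CFAP20 libraries for MKI67. For KIF14 it was 1.87 and 5.53, the second resting on a UTR with 0 overlaps and on the prior of 1 overlap. Over all genes with a 3′ UTR of at least 5 bins the median was 1.64, with quartiles of 0.81 and 2.44, and 79.9% had more density in the coding part in both libraries. The mean of MKI67, 2.41, lay inside these quartiles. The mean of KIF14, 3.70, lay above them, with 4.84% of genes higher, but it rests in part on the UTR with 0 overlaps. Replicate 1 of KIF14 alone lay inside them.

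Coverage of the shorter exons was broad in CENPE and patchy in KIF14 and NDC80. In CENPE, 26 of the 33 exons that hold a bin of their own had overlaps in both tagged-CFAP20 libraries, with exon 27 the densest at 9.50 per bin. In MKI67 all 12 such exons did. In KIF14 this was so for 8 of 20 and in NDC80 for 4 of 7, with exon 11 of NDC80 at 7.5 per bin against a median of 1.5. Over all bins of a gene, the profiles of the 2 tagged-CFAP20 libraries had a Pearson correlation of 0.804 in MKI67 (149 bins), 0.764 in CENPE (464), 0.642 in NDC80 (226) and 0.446 in KIF14 (347). Neighbouring bins share reads and both libraries share the same exons, so these values describe likeness only.

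**Figure D4:**
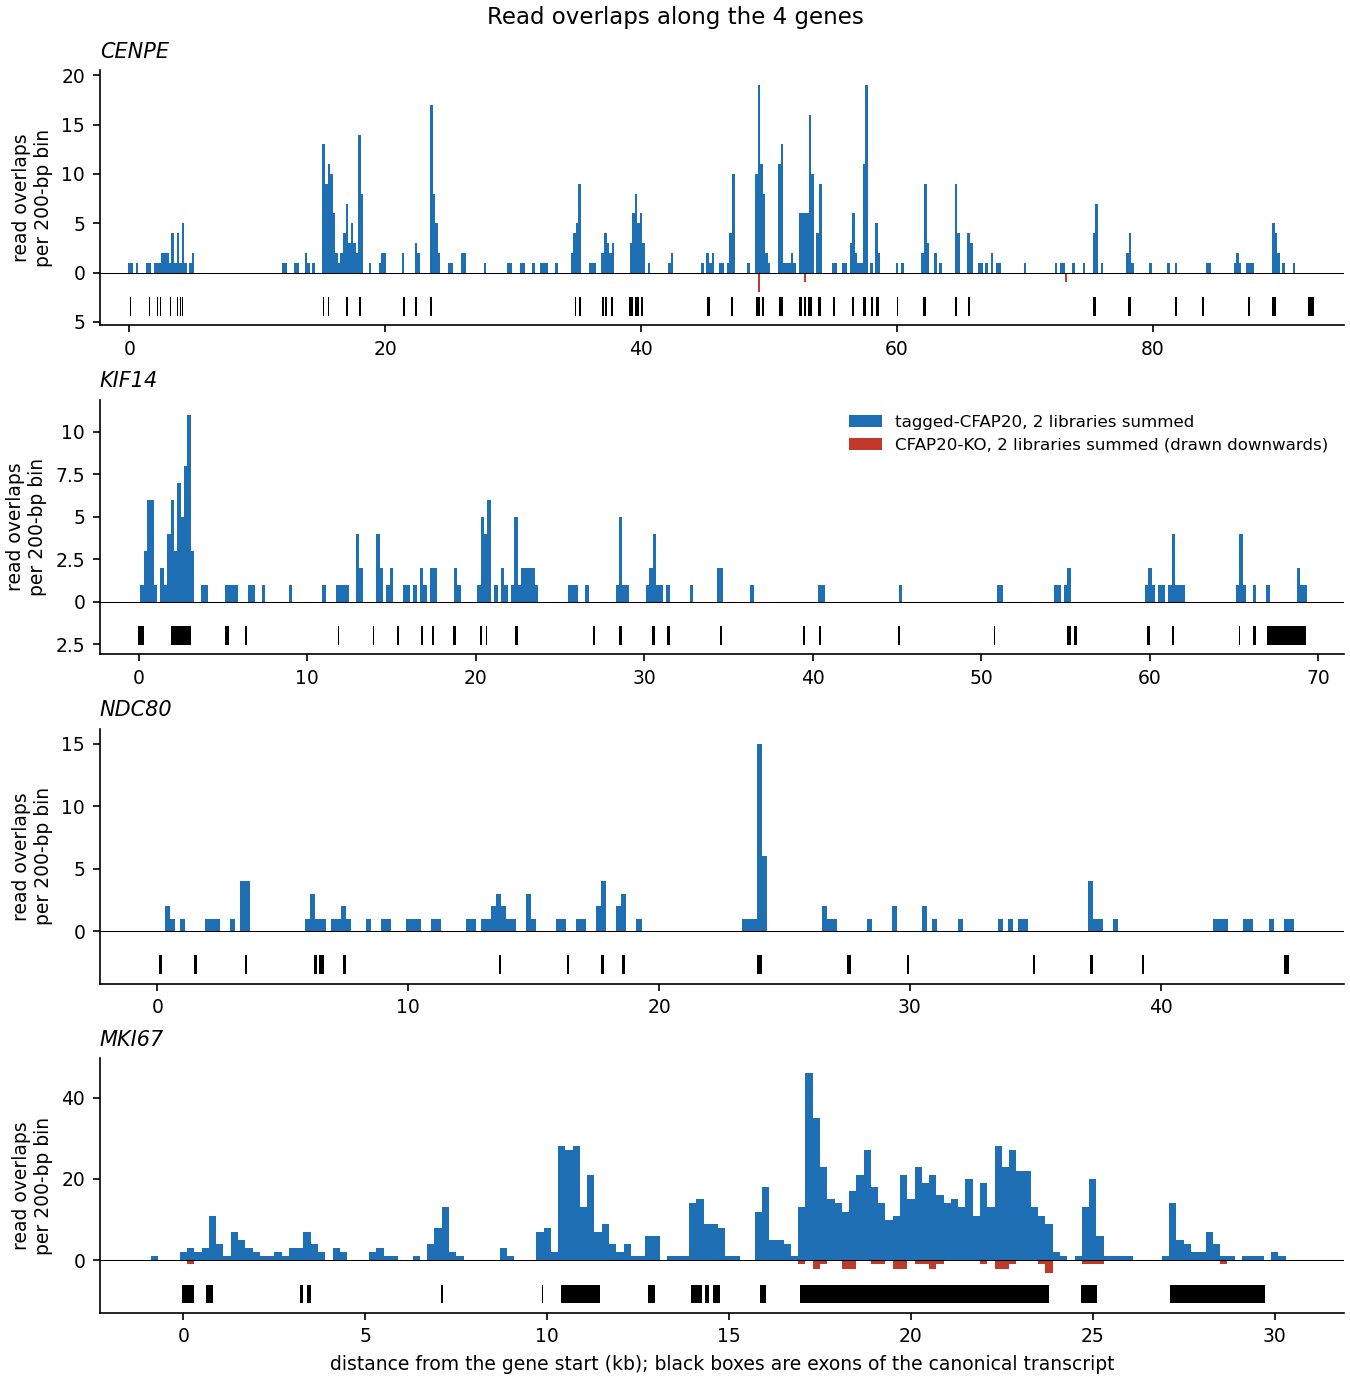
Read overlaps per 200-bp bin along each gene by distance from the gene start, with the 2 tagged-CFAP20 libraries summed (up) and the 2 CFAP20-KO libraries summed (down), and exons as black boxes. Peaks stand over exons, the tallest being 46 overlaps in exon 13 of MKI67, and the last exons of CENPE and KIF14 have few or no overlaps.

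Within introns, signal leaned towards the gene start. Each gene was cut into 3 parts of equal length. In pure intron bins of CENPE, the first part held 53 and 62 overlaps in 137 bins in the tagged-CFAP20 libraries and the last part held 16 and 18 in 134. KIF14 had 28 and 34 overlaps in 88 bins against 8 and 3 in 92. NDC80 had 20 and 12 in 63 bins against 12 and 4 in 69, and MKI67 had 29 and 29 in 40 bins against 4 and 4 in 12. The first part was denser than the last in both libraries in each of the 4 genes, with log2 ratios of 1.70, 2.46, 1.09 and 1.06 for CENPE, KIF14, NDC80 and MKI67. Of 1964 genes with at least 20 overlaps in intron bins, 28.5% were denser in the first part in both libraries, and the median log2 ratio was -0.26. This was read after the profiles had been seen and is a description, without a test. In MKI67 the middle part was denser than either end, with 32 and 19 overlaps in 20 bins.

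Outside the genes there was little. The 2 kb upstream of the gene start held 1 overlap for MKI67 in tagged-CFAP20 replicate 1 and 0 for every other gene and library. The 2 kb past the gene end held 2 and 1 overlaps for MKI67 and 1 and 0 for NDC80 in the tagged-CFAP20 libraries, and 0 otherwise.

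Other genes of mitosis in the tables, in lists without the 4 genes, were compared between the groups with the fit over all 4461 genes tested. These lists were chosen with earlier results of these data known, and the genes named below were taken for their high signal. Their calls and p-values are therefore a description and no independent support for a mitotic pattern. A gene could also be tested on tagged-CFAP20 signal alone. Of the genes tested, 1798 had no CFAP20-KO overlap, 7 of them from the kinetochore and centromere list. On the deposited scale, limma called 37.6% of all genes higher and 0.0672% lower in tagged-CFAP20, and an exact binomial test of pooled reads called 6.3% higher and 0.0672% lower. As shares of each library the exact test called 0.0672% higher and 0.179% lower. At unequal depth limma also calls unchanged genes. In simulated libraries of this depth with equal shares it called as large a portion of them as it called here. With equal deposited signal in place of equal shares it still called unchanged genes, but a smaller portion than it called here. A limma call is therefore not read as a difference by itself, and the exact test on the deposited scale is given beside it. The exact test pools the reads of both libraries of a group. Its p-values are for counting error alone and leave out the spread between libraries, so they are not read by themselves either. Without either tagged-CFAP20 library limma called 0 genes, with 24 and 41 at an unadjusted p under 0.05, and without CFAP20-KO replicate 1 or 2 it called 3674 and 3226. The fitted change of a gene that is 0 in both CFAP20-KO libraries depends on the pseudocount, so medians are given as fitted and with such genes at their 3-read bound, 2.10 and 0.32 over all genes tested.

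Of the kinetochore and centromere genes, 15 of 36 were in the tables and tested. limma called 10 higher and 0 lower, of which 5 were at 0 in CFAP20-KO with a tagged-CFAP20 signal under the floor, and the exact test called 6 higher on the deposited scale and 0 as shares. The median log2 change was 4.00, or 2.05 with genes at their bound. CENPF, a large protein of the outer kinetochore, had 8, 5, 340 and 264 overlaps in CFAP20-KO replicates 1 and 2 and tagged-CFAP20 replicates 1 and 2, a log2 change of 2.05 ± 0.44 (SE; limma adjusted p = 0.0407, exact adjusted p = 5.78e-08). SPDL1, the dynein adaptor Spindly, had 0, 4, 121 and 102 and passed the exact test (adjusted p = 0.00452) but not limma (0.364).

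Of the mitotic kinesins and spindle genes, 9 of 32 were tested. Both limma and the exact test called 4 higher and 0 lower, against 0 as shares, with a median log2 change of 1.76 (1.52 at the bound). KIF20B, a kinesin of cytokinesis, had 5, 1, 293 and 238 overlaps, a log2 change of 3.34 ± 0.34 (SE; limma adjusted p = 0.00706, exact adjusted p = 1.65e-09). KIF11, the motor that pushes the spindle poles apart, had 5, 1, 157 and 125, a change of 2.43 ± 0.41 (limma adjusted p = 0.0226, exact 0.00117). ASPM, a protein of the spindle poles, had 9, 9, 334 and 249, and its signal of 3881 ± 582.4 against 1619 ± 1234 (SD, n = 2 each) passed the exact test (adjusted p = 2.03e-05) but not limma (0.211).

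Of the checkpoint genes and mitotic kinases, 10 of 25 were tested, with 4 higher in limma, 1 of them at 0 in CFAP20-KO and under the floor, 3 higher in the exact test and 0 as shares, and a median log2 change of 3.61 (2.11 at the bound). BUB3, a checkpoint protein, had 3, 1, 110 and 101 overlaps, a log2 change of 2.38 ± 0.42 (SE; limma adjusted p = 0.0259, exact adjusted p = 0.00813). INCENP, the scaffold of the chromosomal passenger complex, had 2, 3, 115 and 90, and TTK, the kinase that starts checkpoint signalling, had 3, 1, 62 and 49. INCENP passed the exact test (adjusted p = 0.0267) but not limma (0.253), and TTK passed neither (limma 0.138, exact 0.349).

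The remaining lists were small. Of 13 cytokinesis genes 2 were tested and 1 passed in both tests, with a list median of 2.99. That was ANLN, which organises the cleavage furrow, with 8, 4, 285 and 256 overlaps and a log2 change of 2.06 ± 0.32 (SE; limma adjusted p = 0.0194, exact adjusted p = 1.84e-06). RACGAP1 of the central spindle had 2, 0, 53 and 41 (limma adjusted p = 0.199, exact 0.172). Of 18 genes of condensin, cohesin and the mitotic chromosome 4 were tested and 1 passed in each test, with a median of 1.98 (1.28 at the bound). SMC3, NIPBL and NCAPG2 had 3, 3, 207 and 141 overlaps, 9, 3, 108 and 114, and 2, 1, 63 and 43, and none of these passed in limma, with adjusted p of 0.103, 0.0899 and 0.157. SMC3, a core subunit of cohesin, passed the exact test (adjusted p = 2.90e-05), while NIPBL and NCAPG2 did not (0.361 and 0.234).

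Kinesins of interphase transport were set beside these as non-mitotic relatives of CENPE and KIF14. Of 23 such genes 5 were tested. limma called 2 higher, 1 of them at 0 in CFAP20-KO and under the floor, and the exact test called 0, with a median log2 change of 1.78 (0.40 at the bound). KIF7, a kinesin of the cilium, had 0, 0, 33 and 31 overlaps, at least 1.63-fold higher than the floor (limma adjusted p = 0.00597), and did not pass the exact test (0.172). KIF3C had 9, 2, 72 and 56, and KIF13A had 4, 1, 39 and 44, and neither passed in either test. With every library set to the same window total, limma called 8, 2, 3, 1, 1 and 2 genes of the 6 lists, in the order they are given here. Over all 4461 genes tested it called 1451 higher. Of the genes named above, CENPF (log2 change 0.93, limma adjusted p = 0.0599), KIF11 (1.32, 0.162) and BUB3 (1.28, 0.103) lost their call under that scaling, and KIF3C, KIF13A and NIPBL changed sign. KIF20B (2.23, 0.0420) and ANLN (0.94, 0.0185) were still called. So was KIF7 (5.02, 0.00833), but its fitted change depends on the pseudocount, as it was at 0 in CFAP20-KO. On the deposited scale, with a pseudocount of 1 read of the shallowest library, the log2 change of KIF7 was 1.09. Without either tagged-CFAP20 library limma called 0 genes of any of the 6 lists. Without CFAP20-KO replicate 1 the list medians of the log2 change as fitted were 4.19, 1.20, 4.885, 3.84, 1.375 and 1.78, in the same order. The median over all genes tested was then 2.31. Without CFAP20-KO replicate 2 the list medians were 3.63, 2.32, 2.71, 2.14, 2.58 and 1.78, beside 1.82 over all genes tested.

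The exon-dense pattern of the 4 genes was also the usual one in these lists. Against 66.9% of all genes tested, 9 of 11 kinetochore genes, 8 of 8 mitotic kinesins and spindle genes, 6 of 10 checkpoint genes, 2 of 2 cytokinesis genes, 4 of 4 condensin and cohesin genes and 2 of 2 interphase kinesins were denser in exons in the tagged-CFAP20 libraries, and none was denser in introns. The list medians of the log2 ratio were 2.06, 2.55, 1.45, 2.05, 2.56 and 1.96, beside 1.57 over all genes tested. CENPF reached 3.66 and KIF20B 3.00, while BUB3 was at -0.04 and did not differ between exons and introns in this test (limma adjusted p = 0.890).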

How the data were processed

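The authors deposited 1 table of signal (coverage) per library, in 200-bp bins around the starts of genes. The build was hg38, and UMI-tools 1.0.0, R 4.0.5, HOMER 4.8.2 and Bowtie2 2.3.5 are listed without roles, per the submitters' processing notes. The sources used here do not say how the signal was normalized. The deposited columns of unit other give gene position and length. All values (100%, tolerance 0.01) were whole multiples of 1 step per library, taken as 1 read overlapping a bin. Reads span 1.37 bins on average, so overlaps are not read counts and no count model was fitted. The signal is not strand-split (opposite-strand neighbours gave r of 0.990 to 1.000 over 81 pairs). Genes absent from a table were set to 0, since 461 of 461 seen through a neighbour's window were at 0. Each table has 1 further column that matches no sample here and was not used.

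Signal was summed from gene start to gene end, at most 100 kb. Of 9667 genes, 9478 matched GENCODE 44. limma 3.58.1 (R 4.3.3) was run on log2(signal + 10) for genes with signal in 2 or more libraries, at a Benjamini-Hochberg adjusted p of 0.05, since the values are no counts. Exon over intron density within tagged-CFAP20 used limma with precision weights, a prior of 1 overlap spread by length, at least 20 overlaps and at least 3 expected in each part and was tested on simulated data. Exact binomial tests used scipy 1.17.1 on overlaps divided by 1.37. Named genes are the 4 genes, the 3 measured genes with most signal in each list, the 3 genes nearest each of the 4 in level, the bin with most overlaps, and every exon of at least 1 kb; 1 list gene and 1 marker are not reported here. The genes and lists were chosen with earlier results of these data known.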

Additional observations from a re-analysis of the deposited data

How the results depend on the processing

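The exon over intron call of CENPE, KIF14 and MKI67 held under 5 other settings each, and that of NDC80 under the 4 that could test it, all added after seeing the data. Genes called in that test fell from 1211 to 307 when only bins wholly in exons counted. The 1681 genes called between groups became 1043 with a pseudocount of 1 read of the shallowest library, 0 with no filter (1714 at an unadjusted p under 0.05), 0 with quantile normalization (16% of genes), and 284 and 11 in exact tests on the deposited scale and as shares; leaving out 1 library gave 0 to 3674. The same window total moved the median log2 change from 2.10 to 1.57, quantile normalization to -0.13. For the exon against intron change between groups, 0 became 441 with genes seen in at least 2 libraries (mostly lower), 286 with bins wholly in exons and 1 with Fisher's exact test, while leaving out 1 library gave 0 to 0; these counts support nothing here. The cause was not tested.

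The tagged-CFAP20 over CFAP20-KO ratio ranged from 7.17 to 23.9 for CENPE and from 1.37 to 6.53 for MKI67 when 1 library was left out, and was 5.49 and 1.16 at the same window total. The mean signal of KIF14, 1406, became 431 in the first 3 kb and 1036 at the same window total, and that of NDC80, 804.1, became 53.0 and 585.1. The first 3 kb of CENPE had no CFAP20-KO overlap and gave no ratio. With any exon base enough, the exon share rose to 68.2% for CENPE, 56.2% for KIF14, 45.5% for NDC80 and 89.7% for MKI67, and with only bins wholly in exons it was 3.20%, 20.9%, 0% and 68.8%, by construction. NIPBL reversed at the same window total (-0.21), as did KIF3C (-0.72) and KIF13A (-0.25), and KIF3C (-0.49) and KIF13A (-0.13) under quantile normalization; none passed the test. Same-numbered libraries did not deviate together (r = 0.005 over 4461 genes); with the replicate block, 1874 genes were called between groups and 0 in the exon against intron change. Within tagged-CFAP20, leaving out 1 of the 2 libraries leaves no replicate and could not be fitted.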
